A study of Mus musculus with 103 samples.

Results

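The genes described here encode the ligands and receptors of the 4 classical axon guidance systems, measured in an atlas of the mouse embryonic head. Members were chosen by gene symbol, not by their values: semaphorins, plexins and neuropilins, Slits and Robos, Eph receptors and ephrins, and netrins with Dcc and the Unc5 receptors. The rule found 68 of the 19938 genes with a named probe set (0.341%): 20 semaphorins (7 of class 3), 9 plexins, 2 neuropilins, 3 Slits, 4 Robos, 13 Eph receptors (9 EphA and 4 EphB), 8 ephrins (5 of the A and 3 of the B class), 4 netrins (Ntn1, Ntn3, Ntn4 and Ntn5), 4 Unc5 receptors and Dcc. Ephb2 was not analysed here.

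All samples were regions of untreated embryos of the outbred CD1 stock, frozen, cryosectioned and dissected with a laser, and no genotype was manipulated. The 102 libraries used fell into 22 groups of 4 to 7 libraries. At E8.5 there were 18 libraries in 4 groups: floor plate, non-floor plate, caudal neural epithelium and mesenchyme. At E9.5 there were 34 libraries in 6 groups, beside 1 further library that was not placed: neuroepithelium, cranial mesenchyme, mandibular arch, maxillary arch, epidermal ectoderm and otic vesicle. At E10.5 there were 50 libraries in 12 groups: midline neuroepithelium, neuroepithelium underlying the medial and the lateral nasal prominence, control neuroepithelium, medial and lateral nasal prominence, mandibular and maxillary arch, the ectoderm of each arch, olfactory pit and Rathke's pouch. Libraries were not tied to embryos by the labels and may share one, so that p-values, which count each library as a replicate, may be too small. Because each library is RNA from many captured cells, fewer cells of a type and less RNA per cell cannot be told apart.

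Guidance proteins act on the growth cone, the moving tip of an axon, and also on migrating cells and on vessels. Slits repel axons that carry Robo receptors, and Robo3 modulates that response in commissural neurons so that they can cross the midline. Netrin-1 attracts through Dcc and repels through Unc5 receptors. Secreted class 3 semaphorins bind neuropilins, which signal through plexins, whereas ephrins and Eph receptors are bound to opposing cells and can signal in both directions. In the head the same families take part in boundary formation in the neural tube, neural crest streaming and vessel growth.

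Values are the deposited ratio of each library to a baseline for its probe set, as log2, so that 0 is the baseline and a difference of 1 is a 2-fold difference. They can be compared between libraries for a gene, but give no level of a gene relative to another and no call of presence. A difference passed where its Benjamini-Hochberg adjusted p in limma, over all 19938 genes, was under 0.05. Its standard error used a spread pooled over all 22 groups, so for members a second fit of the compared groups alone is given where it ended a call. It was not made for genes of the other lists.

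Checked against marker genes, mesenchyme markers averaged 1.45 to 2.70 in the libraries of E9.5 cranial mesenchyme and arches, and neural epithelium markers averaged 0.32 or more in every neural library. Floor plate markers ranged from 0.65 to 1.69 in the floor plate, from 0.54 to 1.37 in the caudal neural epithelium and from -0.25 to 0.70 in the non-floor plate. Some E9.5 groups were mixed by these markers. Mandibular arch markers averaged -0.74 and -0.54 in maxillary arch libraries 1 and 2, but 1.32, 0.53 and 0.72 in libraries 3, 4 and 5. Neuroepithelium library 2 averaged 2.14 for pituitary placode and 0.57 for surface ectoderm markers, the highest of its group for both. At E10.5, 3 groups went against their labels. Surface ectoderm markers averaged 1.09 to 3.26 in libraries 1 to 4 labelled maxillary arch, but -0.38 to 0.09 in those labelled mandibular arch ectoderm, which had mesenchyme markers at 1.10 to 1.43. Frontonasal mesenchyme markers averaged 1.67 to 2.19 in those labelled mandibular arch. In otic vesicle libraries 3 and 5, otic markers averaged 0.38 and -0.10. Otic vesicle library 5 averaged 1.225 for neural epithelium and -0.568 for surface ectoderm markers. The most alike libraries within a group, by the correlation over genes of their departures from the mean of all libraries, were 1 and 3 labelled mandibular arch ectoderm (r = 0.93), E9.5 mandibular arch 2 and 5 (0.81) and E9.5 maxillary arch 1 and 2 (0.81), each counted as a separate replicate. Of the 3 groups that go against their labels, comparisons below use the libraries labelled maxillary arch. They also use the otic vesicle, with libraries 3 and 5 included.

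Over the 17 comparisons between regions or stages, 40 of the 68 members (58.8%) passed at least 1, against 53% of all genes, and 28 passed none. The median range of group means was 0.59 over members and 0.80 over all genes, and 33.8% of members but 43.6% of all genes ranged by 1 or more. The families differed in how far their members ranged. Of the 8 ephrins, 7 had group means spanning 1 or more, with a median range of 1.80, and only Efnb2 did not. Of 13 Eph receptors 6 reached that range, of 11 plexins and neuropilins 5, of 20 semaphorins 2 (Sema3a at 1.44 and Sema3f at 1.36), of 7 Slits and Robos 2 and of 9 netrins and receptors 1. Yet 13 of the 20 semaphorins passed at least 1 comparison, 10 of them in E9.5 ectoderm against arches. The widest ranges were those of Efna1 (3.85), Efna2 (3.42), Epha7 (2.62), Epha3 (2.32) and Ephb1 (2.25), and the narrowest were those of Epha6 (0.18), Epha5 (0.20), Sema3e (0.24) and Sema7a (0.32).

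**Figure D1:**
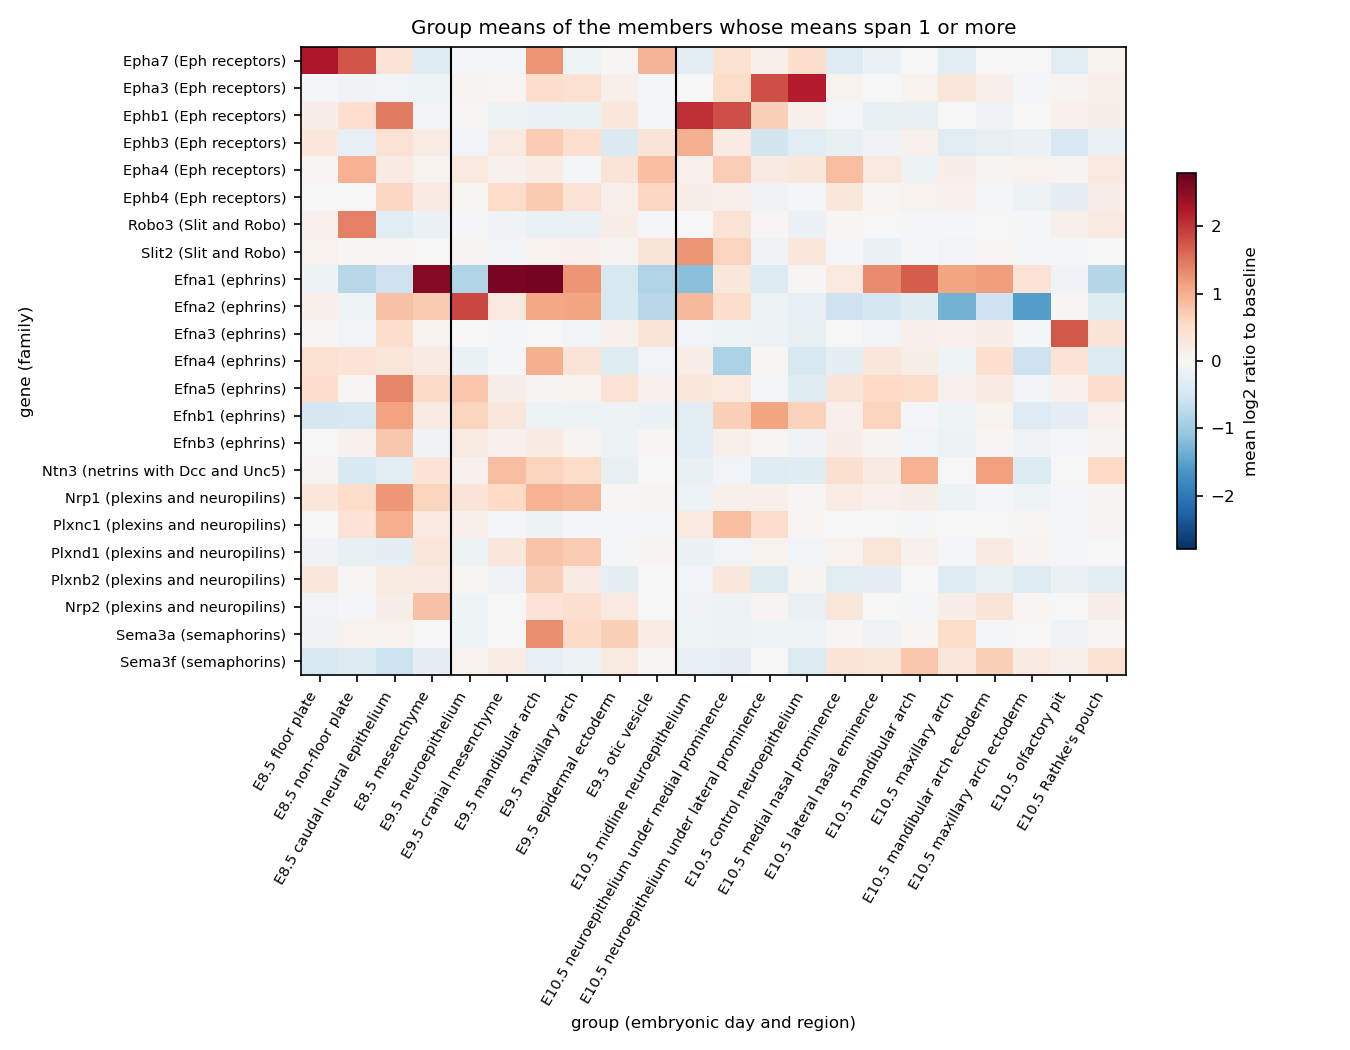
Mean log2 ratio to the baseline of the 23 members whose group means span 1 or more (rows, with their family) in the 22 groups (columns, by stage, with black lines between stages). Red is above and blue below the baseline. Ephrin rows such as Efna1 change from -1.16 to 2.69 between groups, while most other rows depart from 0 in a few columns.

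At E8.5, 10 members (14.7%) varied among the 4 groups by a moderated F test, against 4.24% of all genes, at E9.5, 16 (23.5%) against 17.7%, and at E10.5, 22 (32.4%) against 34%. The 5 with the largest F were Robo3, Ephb1, Epha7, Efna1 and Efnb1 at E8.5, then Efna1, Plxnd1, Robo4, Efna2 and Sema3a at E9.5, and Ephb1, Epha3, Efna3, Slit2 and Sema3f at E10.5. The later stages had more groups, so the shares are not comparable between stages.

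**Figure D2:**
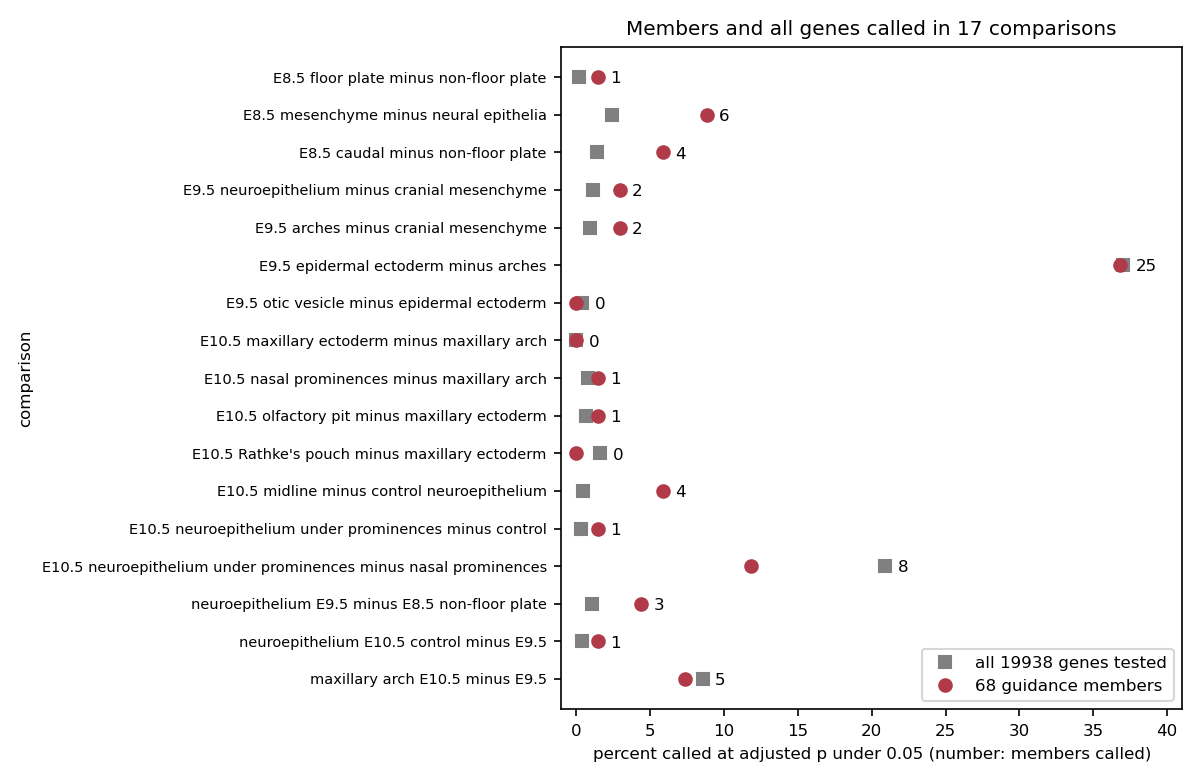
Percent of the 68 members (red circles) and of all 19938 genes tested (grey squares) that passed in each of 17 comparisons, with the number of members beside each row. The share of members runs from 0 in 3 comparisons to 36.8% in E9.5 epidermal ectoderm minus arches, where all genes stand at 37%.

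The proximal promoters of Ephb1, Epha3 and Robo3 are shown as examples of members that passed between regions of the neural tube. They were chosen without a ranking. Each is the 300 bases from 250 before to 50 after the RefSeq start, on the minus strand of GRCm38.p6, a later build than that named for the arrays. The windows are chr9:102354644-102354943 for Ephb1, chr16:63864126-63864425 for Epha3 and chr9:37433126-37433425 for Robo3. Capitals mark matches, on either strand, to the letters of the CCAAT box or to GGGCGG, the letters of the GC box. The letters TATAAA of the TATA box were searched as well.
Ephb1: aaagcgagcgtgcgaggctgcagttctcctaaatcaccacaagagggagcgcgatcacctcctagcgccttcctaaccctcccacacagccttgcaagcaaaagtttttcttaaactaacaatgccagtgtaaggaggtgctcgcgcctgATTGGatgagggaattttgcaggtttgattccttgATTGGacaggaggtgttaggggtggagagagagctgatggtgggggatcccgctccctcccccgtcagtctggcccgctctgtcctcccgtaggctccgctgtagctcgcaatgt
Epha3: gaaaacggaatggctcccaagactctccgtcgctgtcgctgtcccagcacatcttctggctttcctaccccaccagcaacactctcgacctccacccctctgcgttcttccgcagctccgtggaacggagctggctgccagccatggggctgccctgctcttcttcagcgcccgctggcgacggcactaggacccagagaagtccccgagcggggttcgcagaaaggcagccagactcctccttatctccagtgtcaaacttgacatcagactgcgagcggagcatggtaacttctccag
Robo3: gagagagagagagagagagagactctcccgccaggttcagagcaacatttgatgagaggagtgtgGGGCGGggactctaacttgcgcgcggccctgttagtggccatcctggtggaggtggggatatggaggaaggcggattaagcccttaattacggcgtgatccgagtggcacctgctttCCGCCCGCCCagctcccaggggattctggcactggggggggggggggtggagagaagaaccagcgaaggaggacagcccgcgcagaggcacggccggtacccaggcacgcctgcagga
The Ephb1 window held 2 CCAAT matches, both as ATTGG on the printed strand, and no match to the others. The Robo3 window held 3 GGGCGG matches, the last 2 overlapping each other on the opposite strand, and no other, and the Epha3 window matched none of the 3 motifs. Of 32851 such windows 37.4% held CCAAT, 35.7% GGGCGG and 13.6% TATAAA, and the GC content of the 3 shown was 55.7%, 60.7% and 63.3% against a median of 52.7%. RefSeq windows were found for 58 of the 68 members.

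Among Slits and Robos, the receptor Robo3 separated the regions of the E8.5 neural plate. The non-floor plate libraries read 0.44, 2.04, 2.01, 1.45 and 1.14 (1.42 ± 0.67, SD, n = 5), the floor plate libraries 0.37, 0.07, 0.03 and 0.02, and the caudal libraries -0.40, -0.16, -0.32 and -0.31. Every non-floor plate library was above every floor plate and every caudal library. Robo3 was lower in the floor plate by a log2 difference of -1.29 ± 0.15 (SE, limma adjusted p = 4.9e-09, 2.45-fold), the only member to pass there (1.47% of members; 0.181% of all genes). In the caudal neural epithelium it fell by 1.71 ± 0.15 (limma adjusted p = 1e-14). The spread of Robo3 in the non-floor plate was far above its spread elsewhere, and in fits of the compared groups alone its adjusted p was 0.89 and 0.086. These 5 non-floor plate libraries also serve the next comparison. Surface ectoderm markers averaged -0.06 to 1.07 in the non-floor plate and -0.15 to 0.66 in the floor plate, and their part in the result was not tested.

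By E9.5 the neuroepithelium read -0.31, 0.34, -0.14, -0.06 and -0.16 for Robo3, below every E8.5 non-floor plate library. The difference, E9.5 less E8.5, was -1.48 ± 0.14 (limma adjusted p = 9e-13; 0.061 with those groups alone). In that comparison 3 members passed (4.41%; 1.06% of all genes). Libraries of E8.5 mesenchyme stood between -0.19 and -0.09, and Robo3 was lower there than in the mean of the 3 neural groups by -0.57 ± 0.12 (limma adjusted p = 0.00089; 0.21 with E8.5 groups alone, and 0.12 after quantile normalization, at -0.48). Caudal libraries 1, 3 and 4 were below every mesenchyme library, and floor plate libraries read 0.02 to 0.37. Most of this difference therefore came from the non-floor plate, with a mean of 1.42.

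**Figure D3:**
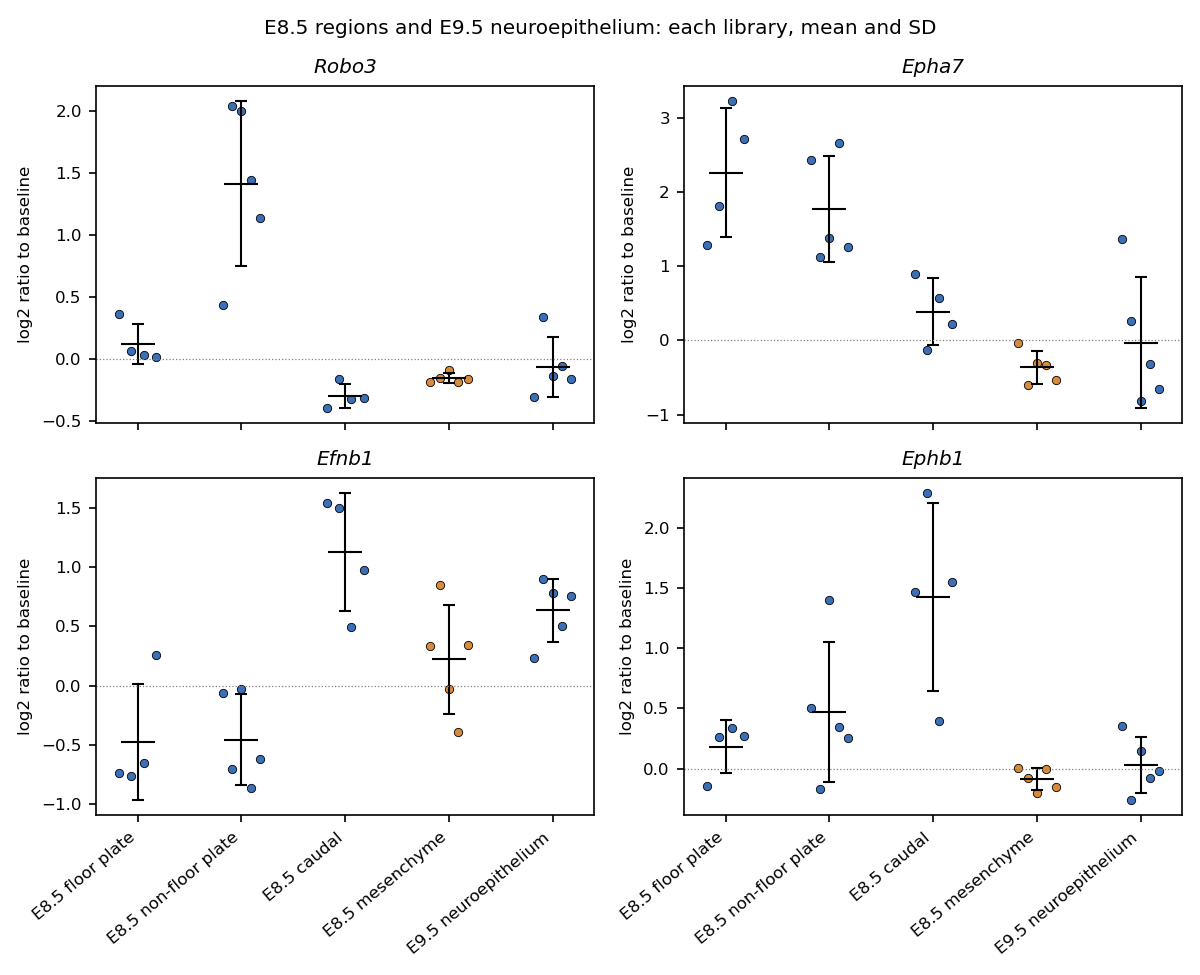
Log2 ratio to the baseline of Robo3, Epha7, Efnb1 and Ephb1 in each library (points) of the 4 E8.5 groups and of the E9.5 neuroepithelium, with the mean and SD (bars); blue is neural tissue and orange mesenchyme. Robo3 lies between 0.44 and 2.04 in the non-floor plate and at or under 0.37 in every other library.

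The floor plate is the classical source of netrin and Slit. In these libraries the ligands Ntn1, Slit1, Slit2 and Slit3 differed between E8.5 floor plate and non-floor plate by 0.12 ± 0.21, -0.01 ± 0.13, 0.03 ± 0.23 and 0.06 ± 0.15, and the receptor Dcc by 0.03 ± 0.10, none of which passed (limma adjusted p = 1). Floor plate markers overlapped between these groups, and 2 of the 6 measured were higher in the floor plate. At E10.5 Slit2 did differ along the neuroepithelium. It read 2.27, 1.70, 0.00 and 1.01 in the midline, 0.22, 1.61, 0.16 and 0.47 under the medial prominence, -0.03, -0.20, -0.04 and -0.14 under the lateral prominence, and 0.17, 0.11, -0.06 and 0.92 in the control neuroepithelium. Midline libraries 1, 2 and 4 were above all control libraries and midline library 3 was not. Slit2 was higher in the midline by 0.96 ± 0.25 (limma adjusted p = 0.046). The call was lost without midline library 1 (0.62, adjusted p = 0.65) or 2 (0.81, 0.30), without control library 1 (0.92, 0.13), 2 (0.90, 0.17) or 3 (0.84, 0.22), after quantile normalization (0.83, 0.067) and in the compared groups alone (0.99). The receptor Robo2 stood between -0.23 and -0.06 in the midline and between -0.01 and 0.92 in the control libraries, without overlap, but did not pass (limma adjusted p = 0.22).

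Robo4, a Robo of vascular endothelium, was the other family member to pass at E9.5 in neural against mesenchymal tissue. Neuroepithelium libraries read -0.28, 0.10, -0.39, -0.20 and -0.17, and cranial mesenchyme libraries had a lowest value of 0.04, a median of 0.50 and a highest of 1.17. One library of each group crossed into the other's range. Robo4 was lower in the neuroepithelium by -0.71 ± 0.13 (limma adjusted p = 9.7e-05; 0.26 with those groups alone). Endothelial markers averaged -0.39 to -0.06 in these neuroepithelium libraries and 0.57 to 1.90 in the cranial mesenchyme, 3 of 11 being lower in the neuroepithelium, and their part in the Robo4 result was not tested. In E8.5 mesenchyme, where endothelial markers averaged 1.29 to 2.10, Robo4 stood at -0.21 to -0.06.

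Among Eph receptors, Ephb1, a receptor for B-class ephrins, passed 6 of the 17 comparisons. At E10.5 it read 2.40, 1.76, 1.97 and 2.01 in the midline neuroepithelium, 1.39, 1.80, 1.40 and 2.63 under the medial prominence, 1.68, 0.45, 0.68 and -0.13 under the lateral prominence, and 0.55, -0.26, 0.26 and 0.00 in the control neuroepithelium. The means fell in that order (2.04, 1.80, 0.67 and 0.14). All midline and medial libraries lay above all control libraries, the midline and medial ranges overlapped, and the lateral group overlapped both the medial and the control group. Ephb1 was higher in the midline than in the control by 1.90 ± 0.23 (limma adjusted p = 2.3e-08, 3.73-fold; 0.058 with those groups alone). Across the mean of its 2 probe sets the difference was 1.69. In the medial and lateral groups together it was higher than in the control by 1.10 ± 0.20 (limma adjusted p = 0.00058; 1 with those groups alone), the only member to pass (1.47%; 0.296% of all genes). Both differences use the same 4 control libraries, as do those of Epha3 that follow.

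The receptor Epha3, which binds A-class ephrins, ran the other way along the same neuroepithelium. Midline libraries read -0.11, 0.11, 0.03 and -0.02, medial libraries 0.10, 0.68, -0.03 and 1.26, lateral libraries 3.50, 2.81, 0.68 and 0.23, and control libraries 1.49, 0.18, 3.34 and 3.81. The lateral and control groups each held both near-baseline and high libraries, with SDs of 1.60 and 1.68 against 0.09 in the midline. Epha3 was lower in the midline than in the control by -2.20 ± 0.36 (limma adjusted p = 2.7e-05, 4.59-fold), with no overlap, but the adjusted p was 0.99 in those groups alone, where the spread is that of these 8 libraries. The control neuroepithelium at E10.5 was above the E9.5 neuroepithelium, whose libraries read 0.37, 0.07, -0.07, -0.04 and 0.06, by 2.12 ± 0.34 (limma adjusted p = 2.8e-05; 0.47 with those groups alone). Control library 2, at 0.18, was within the E9.5 range. Epha3 was the only member to pass between those stages (1.47%; 0.426% of all genes).

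The midline comparison called 4 members (5.88%), against 0.471% of all genes. The fourth, beside Ephb1, Epha3 and Slit2, was Ephb3, another receptor of B-class ephrins, at 1.12, 2.46, -0.09 and 0.52 in the midline and -0.25, -0.42, 0.02 and -0.61 in the control. Midline library 3 fell inside the control range. The difference was 1.32 ± 0.31 (limma adjusted p = 0.017), and it was lost without midline library 1 (1.28, adjusted p = 0.055) or 2 (0.83, 0.52), without control library 2 (1.28, 0.061) or 4 (1.22, 0.098), and in those groups alone (0.99). Midline library 3 was also the lowest midline library for Slit2. Neuronal markers averaged 1.04 to 1.57 in the midline and 0.74 to 1.51 in the control, with 2 of 14 higher and 2 lower, and their part was not tested.

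**Figure D4:**
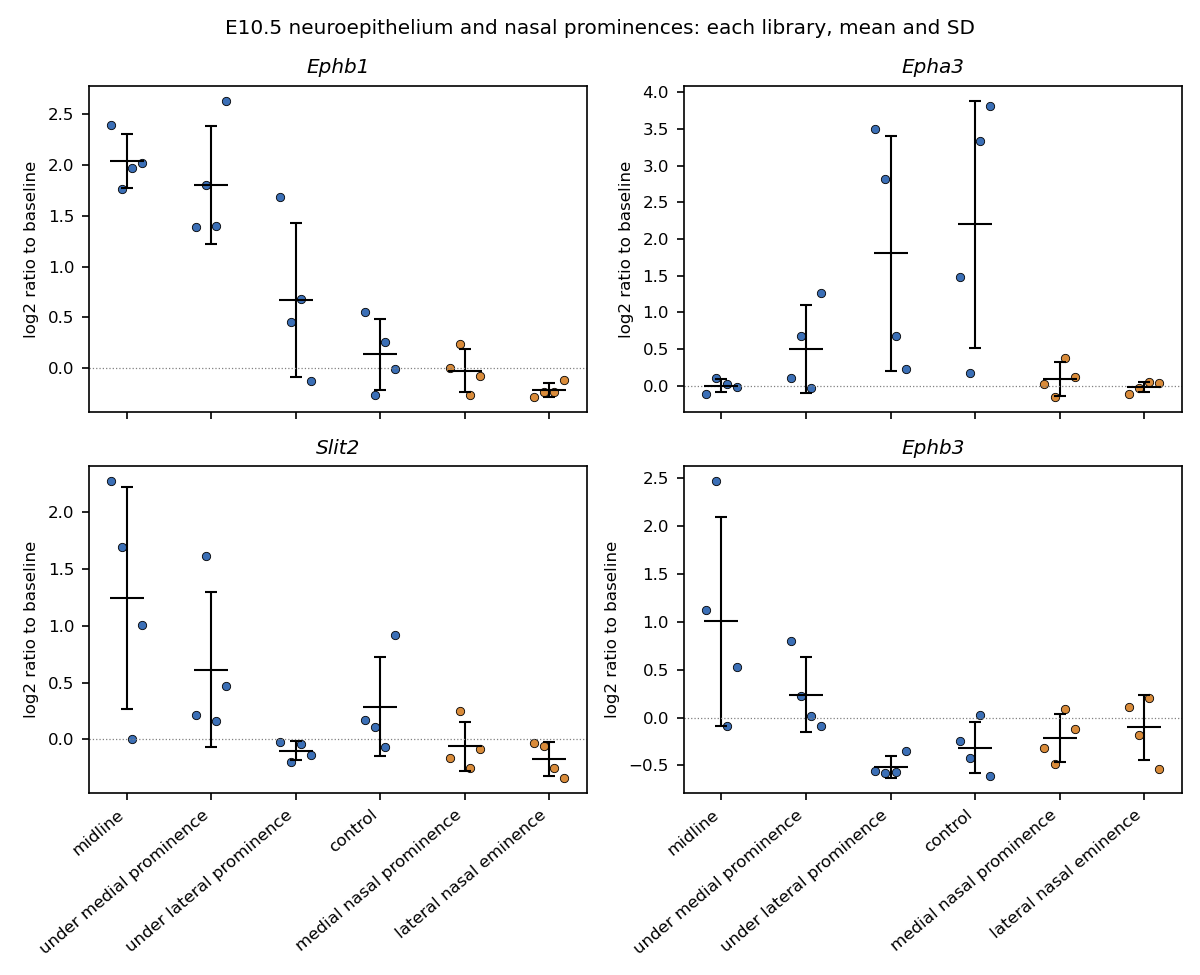
Log2 ratio to the baseline of Ephb1, Epha3, Slit2 and Ephb3 in each library (points) of the 4 E10.5 neuroepithelial groups (blue) and the 2 nasal prominences (orange), with the mean and SD (bars). Ephb1 lies at 1.76 to 2.40 in the midline and at or under 0.55 in the control, while Epha3 lies at or under 0.11 in the midline and reaches 3.81 in the control.

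Against the nasal prominences, the facial swellings that surround the olfactory pits, the neuroepithelium beneath them differed in 8 members (11.8%), a smaller share than the 20.9% of all genes. Of these 4 were higher (14.9% of all genes) and 4 lower (5.98%). Ephb1 stood between -0.28 and 0.24 in all 8 nasal libraries, and was higher in the neuroepithelium by 1.36 ± 0.17 (limma adjusted p = 2.4e-09). Epha3, between -0.16 and 0.38 in the nasal libraries, was higher by 1.11 ± 0.25 (limma adjusted p = 0.00094; 0.075 with those groups alone). Plxnc1, the receptor of Sema7a, was higher by 0.68 ± 0.18 (0.0059; 0.16 alone), which rested on medial library 3 at 2.63 and was 0.38 (0.06) without it. Epha6 was higher by 0.12 ± 0.04 (0.015), a small difference that was lost without lateral nasal library 4 (0.10, 0.061), after quantile normalization (0.07, 0.20) and in those groups alone (0.090). Neuronal markers were higher here in 10 of 14, and mesenchyme markers lower in 7 of 10; their part was not tested.

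The 4 lower members were secreted ligands and a receptor. Ntn5, a netrin, read between -0.49 and 0.24 in the neuroepithelial and between 0.02 and 0.78 in the nasal libraries, and was lower by -0.52 ± 0.13 (limma adjusted p = 0.0042; 0.016 with those groups alone). Slit1 was lower by -0.33 (0.0095), a call lost without lateral nasal library 4 (-0.27, 0.05) and in those groups alone (0.094). Epha10, an Eph receptor without kinase activity, was lower by -0.39 (0.014), a call lost without medial nasal library 2 (-0.28, 0.088) and in those groups alone (0.086). Sema3f, a class 3 semaphorin that binds Nrp2, was lower by -0.49 ± 0.18 (0.046). It was lost without any single 1 of 11 libraries (-0.51 to -0.42, adjusted p from 0.059 to 0.12): lateral nasal 1 and 4, medial nasal 2, 3 and 4, and neuroepithelial libraries 2, 3 and 4 of the medial and 1, 2 and 3 of the lateral group.

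At E8.5 the mesenchyme differed from the 3 neural groups in 6 members (8.82%), against 2.4% of all genes. The largest difference was that of Efna1, an A-class ephrin. Mesenchyme libraries read 2.29, 2.56, 2.57, 2.79 and 2.48. Floor plate libraries read 0.14, -1.07, -0.85 and 1.24, non-floor plate libraries -0.93, -0.27, -1.15, -0.48 and -1.07, and caudal libraries -1.19, -0.55, 0.17 and -0.79. The lowest mesenchyme library was above the highest neural library, floor plate library 4. Efna1 was higher in the mesenchyme by 3.04 ± 0.53 (limma adjusted p = 2.8e-05, 8.23-fold), and 3.8e-05 in the E8.5 groups alone. Epha7, an EphA receptor, had the opposite pattern: 1.29, 1.81, 3.22 and 2.71 in the floor plate, 2.43, 1.13, 1.38, 2.65 and 1.25 in the non-floor plate, 0.90, -0.14, 0.57 and 0.22 in the caudal epithelium and -0.61 to -0.04 in the mesenchyme. It was lower in the mesenchyme by -1.84 ± 0.39 (limma adjusted p = 0.00089; 0.0035 with E8.5 groups alone). All 9 floor plate and non-floor plate libraries were above all mesenchyme libraries, and only caudal library 2 overlapped the mesenchyme.

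The other E8.5 differences were smaller. Nrp2, a co-receptor for class 3 semaphorins, was higher in the mesenchyme at 0.07, 1.20, 0.30, 0.97 and 1.60, by 0.81 ± 0.17 (limma adjusted p = 0.00094). Plxnd1, a plexin of vessels, stood at 0.17 to 0.49 in the mesenchyme and at -0.42 to 0.03 in the neural libraries, without overlap, and was higher by 0.51 ± 0.14 (0.020; 0.095 and 0.083 without mesenchyme library 3 or 4). Endothelial markers averaged 1.29 to 2.10 in these mesenchyme libraries and below 0 in every neural library, with 9 of 11 higher, and their part was not tested. Ephb1 stood at -0.20 to 0.01 in the mesenchyme and was lower by -0.78 ± 0.17 (0.0025; 0.19 with E8.5 groups alone, and -0.47 with adjusted p = 0.38 for the mean of its probe sets).

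Along the E8.5 neural tube, 4 members passed between the caudal neural epithelium and the non-floor plate (5.88%; 1.41% of all genes), Robo3 among them. Efnb1, a B-class ephrin, read 1.54, 1.50, 0.49 and 0.98 in the caudal and -0.06, -0.71, -0.03, -0.87 and -0.62 in the non-floor plate libraries. The groups did not overlap, and the difference was 1.59 ± 0.34 (limma adjusted p = 0.0021; 0.072 with those groups alone). Ephb1 read 1.46, 2.29, 0.39 and 1.55 in the caudal and 0.50, -0.17, 1.40, 0.35 and 0.25 in the non-floor plate libraries, which overlap. It was higher by 0.96 ± 0.22 (0.0073), lost without caudal library 2 (0.67, 0.21) or non-floor plate library 2 (0.80, 0.063), after quantile normalization (0.62, 0.47), with the mean of its probe sets (0.54, 0.57) and in those groups alone (0.39). Epha2 read 0.12, 0.82, 1.05 and 0.00 against -0.19 to 0.10, and was higher by 0.55 ± 0.12 (0.0045; 0.35 with those groups alone), which rested on caudal libraries 2 (adjusted p = 0.085 without it) and 3 (0.21) and was 0.34 (0.63) after quantile normalization. The A-class ephrin Efna5, at 3.35, -0.32, 2.09 and 0.38, had its highest group mean in the caudal epithelium (1.37 ± 1.66, SD, n = 4) and passed no comparison.

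At E9.5, Efna1 again separated mesenchyme from neural tissue. Neuroepithelium libraries read -1.29, 0.59, -1.18, -1.18 and -1.11, and the 6 cranial mesenchyme libraries ran from 0.99 over a median of 2.56 to 3.97. The groups did not overlap. Efna1 was lower in the neuroepithelium by -3.49 ± 0.61 (limma adjusted p = 7.4e-05, 11.2-fold; 0.033 with those groups alone), and with Robo4 it made 2 members (2.94%; 1.15% of all genes). The neural minus mesenchymal differences of the E8.5 and the E9.5 stage were themselves compared, and 0 members passed (0.286% of all genes), with 8 at an unadjusted limma p under 0.05.

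In the arches Efna1 read 2.28, 3.01, 2.86, 2.43 and 2.88 in the mandibular and 2.37, 2.52, 3.08, -0.87 and -0.94 in the maxillary libraries, so that maxillary libraries 4 and 5 stood with the neural ones. Mesenchyme markers averaged 1.448 and 1.504 in those 2 libraries and 1.67 to 2.27 in the other 3, and endothelial markers 0.90 and 0.43 against 1.45 to 1.91. Against the cranial mesenchyme, 2 members passed in the arches (2.94%; 0.933% of all genes). Sema3a, a class 3 repellent bound by Nrp1, read 2.26, 0.07, 0.88, 1.74 and 1.56 in the mandibular, 1.31, 0.97, 0.84, -0.18 and -0.24 in the maxillary and -0.17 to 0.35 in the cranial libraries. It was higher in the arches by 0.94 ± 0.23 (limma adjusted p = 0.029; 0.44 with those groups alone, and 0.66 with adjusted p = 0.10 after quantile normalization). Its adjusted p rose to between 0.056 and 0.11 without cranial library 1, 4, 5 or 6, mandibular library 2 or 5, or maxillary library 1, 2 or 3. Ntn5 was lower in the arches by -0.58 ± 0.14 (0.018), which rested on cranial library 1 at 1.81, beside 0.03 to 0.37 in the other 5, and was -0.31 (0.25) without it. In those groups alone its adjusted p was 0.47.

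Between the E9.5 epidermal ectoderm and the arches, 25 members passed (36.8%), close to the 37% of all genes, and the share is not particular to these genes. Of them 16 were higher in the ectoderm (13.6% of all genes were) and 9 lower (23.3%). By family, 9 semaphorins were higher and 1 lower, 3 ephrins were lower and 0 higher, and 3 plexins or neuropilins were lower and 1 higher. Mesenchyme markers were lower in the ectoderm in 7 of 10 and endothelial markers in 9 of 11, while surface ectoderm markers were higher in 8 of 12, and their part was not tested. Without ectoderm library 7, whose values spread most over all genes, 14 members passed. The share of all genes in that fit is not given here, so the fall is not a result about the members.

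The ligands with the largest falls in the ectoderm were ephrins. Efna1 had a lowest value of -1.05, a median of -0.90 and a highest of 2.06 in the 7 ectoderm libraries, overlapping the arches through maxillary libraries 4 and 5, and was lower by -2.42 ± 0.49 (limma adjusted p = 0.00022, 5.34-fold). Efna2 ran from -1.71 over -0.27 to 0.95 in the ectoderm and from 0.58 to 1.69 in the arches, and was lower by -1.53 ± 0.42 (0.0038). Efna4 was lower by -1.03 ± 0.40 (0.035), lost without ectoderm library 2 (-0.87, 0.093), ectoderm library 7 (-0.71, 0.18) or maxillary library 2 (-0.99, 0.057). It was also lost after quantile normalization (-0.42, 0.37), with array weights (-0.65, 0.13), with the unplaced library as mandibular arch (-0.92, 0.053) and in those groups alone (0.051). Among receptors, Ephb3 was lower by -0.997 ± 0.217 (0.00046), Nrp1, the co-receptor of Sema3a and of VEGF, by -0.91 ± 0.22 (0.0014), Plxnd1 by -0.79 ± 0.13 (8e-06) and Plxnb2, a receptor for class 4 semaphorins, by -0.73 ± 0.18 (0.0013). Nrp1 stood between -0.17 and 0.39 in the ectoderm, and 9 of the 10 arch libraries read 0.33 or more, up to 1.94. The netrin Ntn3 (-0.78 ± 0.31, 0.044) and Sema5a (-0.25 ± 0.07, 0.0063) were the remaining lower members. For Plxnb2, Ntn3 and Sema5a the fit of those groups alone is not given. Fewer members passed in that fit, so these calls may not hold in it.

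The ligand with the largest rise in the ectoderm was Ntn1. It ran from -0.28 to 0.99 in the ectoderm (0.14 ± 0.45, SD, n = 7) and averaged -0.54 ± 0.23 (n = 5) in the mandibular and -0.44 ± 0.33 (n = 5) in the maxillary arch. The difference was 0.63 ± 0.15 (limma adjusted p = 0.0013), and its receptor Dcc was higher by 0.23 ± 0.07 (0.012). Robo3 was higher by 0.38 ± 0.11 (0.0063), at 0.00 to 0.48 against -0.37 to 0.08. Sema4b was higher by 0.42 (0.0028), which rested on ectoderm library 7 at 1.31 and was 0.25 (0.057) without it and had an adjusted p of 0.086 in those groups alone. Epha10 was higher by 0.38 (0.0093; 0.26 with 0.091 without library 7, and 0.068 in those groups alone) and Sema3b by 0.37 (0.0045). Ephb1 was higher by 0.47 (0.021; 0.053 and 0.072 without ectoderm library 6 or 7, and 0.30 with adjusted p = 0.19 for the mean of its probe sets). The remaining 9 higher members, Sema3d, Sema3g, Sema4a, Sema4f, Sema4g, Sema6b, Sema7a, Plxna4 and Unc5a, differed by 0.18 to 0.31. For these 9 and for Dcc the fit of those groups alone is not given either, and their calls may not hold in it.

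**Figure D5:**
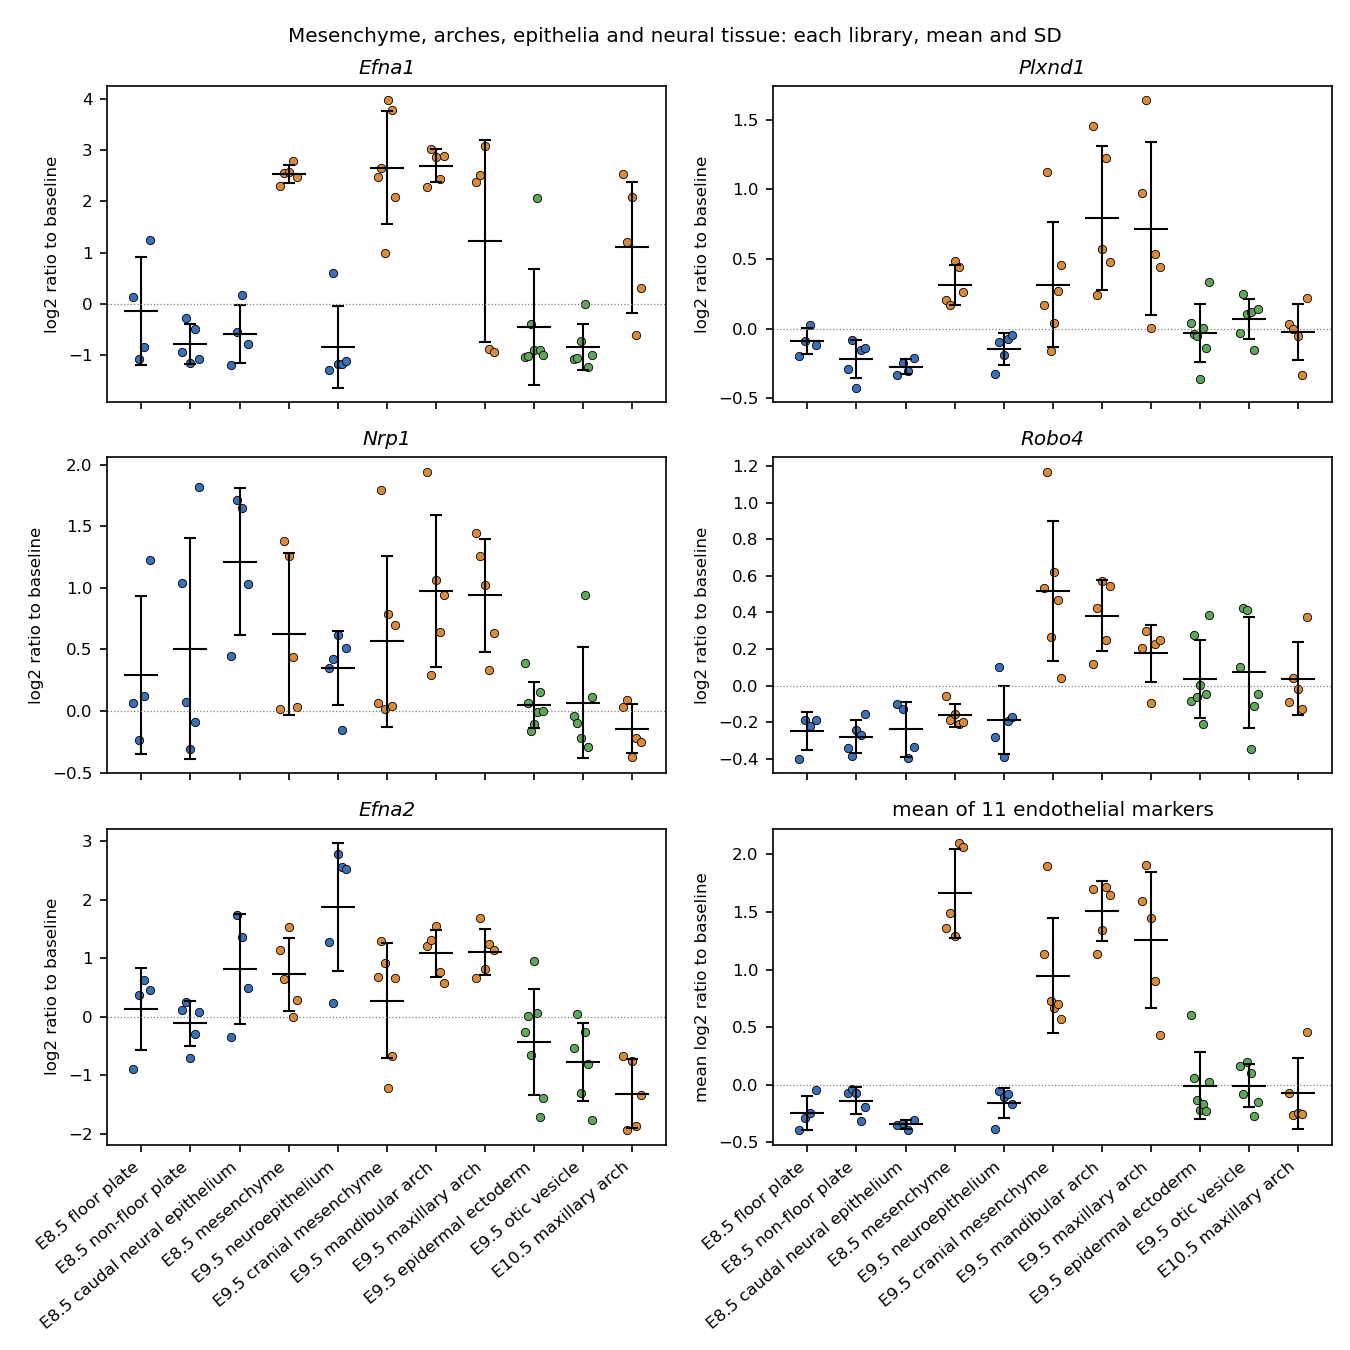
Log2 ratio to the baseline of Efna1, Plxnd1, Nrp1, Robo4 and Efna2, and the mean of 11 endothelial markers, in each library (points) of the E8.5 and E9.5 groups and of the libraries labelled E10.5 maxillary arch, with the mean and SD (bars). Blue is neural, orange is labelled mesenchyme or arch, and green is ectoderm and otic vesicle. Efna1 lies above 2 in all E8.5 mesenchyme libraries and near -1 in maxillary arch libraries 4 and 5 at E9.5.

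The E9.5 maxillary libraries enter the stage comparison too. Between the E9.5 and the E10.5 libraries labelled maxillary arch, 5 members passed (7.35%; 8.56% of all genes), with 3 lower (6.88% of all genes) and 2 higher (1.68%). Efna2 read 0.67, 1.69, 0.81, 1.24 and 1.14 at E9.5 and -0.68, -1.94, -0.76, -1.86 and -1.35 at E10.5, without overlap, and fell by 2.43 ± 0.54 (limma adjusted p = 0.0033, 5.38-fold; 0.019 with those groups alone). Nrp1, at 0.33 to 1.45 and then -0.37 to 0.09, fell by 1.08 ± 0.28 (0.011; 0.13 with those groups alone, and -0.79 with 0.061 after quantile normalization), with adjusted p = 0.061 and 0.060 without E9.5 library 1 or 2. Plxnd1 read 0.98, 1.64, 0.00, 0.54 and 0.44 at E9.5 and 0.04, 0.00, -0.05, -0.34 and 0.22 at E10.5, and fell by 0.75 ± 0.16 (0.0033; 0.24 with those groups alone), with -0.52 (0.064) without E9.5 library 2. Over the same libraries endothelial markers fell in 9 of 11, mesenchyme markers fell in 2 of 10 and surface ectoderm markers rose in 5 of 12, and their part was not tested. Sema4f rose by 0.39 ± 0.10 (0.0096; 0.23 with those groups alone, and 0.07 without E10.5 library 4). Sema4b rose by 0.43 ± 0.14 (0.043; 0.25 alone) and was lost without E9.5 library 1, 2 or 3 or E10.5 library 2, 4 or 5.

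The E10.5 maxillary ectoderm and the libraries labelled maxillary arch differed in 0 members (0.01% of all genes), with 2 at an unadjusted limma p under 0.05. By label, the ectoderm minus arch difference moved between stages for Plxnd1, the only member (1.47%; 0.868% of all genes). The earlier stage gave -0.79 and the later 0.10. The later difference was above the earlier by 0.88 ± 0.22 (limma adjusted p = 0.023; 0.31 with those groups alone). That was lost without E10.5 arch library 4 (0.80, 0.076) or ectoderm library 1 (0.80, 0.07) or 4 (0.85, 0.068), after quantile normalization (0.74, 0.079) and with the unplaced library counted as mandibular arch (0.83, 0.051). Surface ectoderm markers averaged 1.09 to 3.26 in E10.5 arch libraries 1 to 4 and -0.48 in library 5. They averaged 1.61 to 2.31 in the E10.5 maxillary ectoderm, but -0.68 to 0.74 in the E9.5 arches. By these markers the label arch does not stand for the same tissue at both stages. Endothelial markers moved the same way as Plxnd1 in 2 of 11. The part of either marker set was not tested.

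In the neuroepithelium between E8.5 non-floor plate and E9.5, 2 members passed beside Robo3. The ephrin Efna2 read 0.11, 0.25, -0.71, -0.30 and 0.07, then 1.27, 0.23, 2.79, 2.56 and 2.54, and rose by 1.99 ± 0.54 (limma adjusted p = 0.039; 0.11 with those groups alone). Epha7, a receptor of A-class ephrins, had read 1.13 to 2.65 and at E9.5 read 1.36, 0.26, -0.82, -0.31 and -0.65, and fell by 1.80 ± 0.46 (0.025; 0.13 alone). E9.5 library 2 overlapped the earlier stage for Efna2, and library 1 did for Epha7. Without E8.5 library 1 or 4, or E9.5 library 3, 4 or 5, both lost the call, and Efna2 lost it without E8.5 library 3 or 5 as well (adjusted p from 0.051 to 0.16). Erythroid markers averaged -3.56 to -2.57 at E8.5 and -1.06 to 0.49 at E9.5, with 3 of 6 higher, and 1 of 12 surface ectoderm markers was lower. Their part was not tested.

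In the derivatives of the head ectoderm few members passed. The A-class ephrin Efna3 read 1.86, 1.11, -0.07 and 4.06 in the olfactory pit and -0.25 to 0.20 in the maxillary ectoderm, and was higher by 1.77 ± 0.32 (limma adjusted p = 0.0011, 3.42-fold), the only member (1.47%; 0.692% of all genes). Pit library 3 lay inside the ectoderm's range. The difference was 1.00 (0.037) without pit library 4, and its adjusted p was 0.60 in those groups alone. In the nasal prominences Sema3c, which guides crest-derived cells of the outflow tract, was lower than in the libraries labelled maxillary arch by -0.79 ± 0.20 (limma adjusted p = 0.028), again the only member (1.47%; 0.802% of all genes). Maxillary library 3 read 2.92 and the others 0.71, 0.16, -0.10 and -0.24. Without library 3 the difference was -0.23 (0.56), and without library 1 it was -0.79 (0.054). In those groups alone the adjusted p was 0.78. Surface ectoderm markers, lower in the nasal prominences in 6 of 12, averaged 3.26 in maxillary library 3, the highest of that group, and their part was not tested.

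The otic vesicle and the E9.5 ectoderm differed in 0 members (0.391% of all genes), with 7 at an unadjusted limma p under 0.05. Ephb3 came nearest, at -0.04 to 1.18 against -0.97 to 0.22 (0.77, limma adjusted p = 0.16). Rathke's pouch, the epithelium that forms the anterior pituitary, differed from the maxillary ectoderm in 0 members (1.63% of all genes), with 10 at an unadjusted p under 0.05. Plxna2, a receptor of class 6 semaphorins, stood at -0.39 to -0.07 in the pouch and 0.08 to 0.33 in the ectoderm, without overlap (-0.41, limma adjusted p = 0.089). Rathke's pouch had the highest group mean for Ntn1 (0.25), Dcc (0.30), Unc5a (0.28) and Unc5b (0.31), none of which passed there.

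Ligands and receptors known to bind each other varied together in some pairs and in opposite ways in others. Over the 22 group means, Pearson's r was 0.73 for Ntn1 and Dcc, 0.60 for Slit3 and Robo1, 0.57 for Ntn1 and Unc5b and 0.53 for Sema4d and Plxnb1. It was -0.53 for Efna5 and Epha3, -0.53 for Sema6a and Plxna2 and -0.40 for Slit2 and Robo1. Within E8.5 the sign was the other way for Slit3 and Robo1 (-0.90), Ntn1 and Unc5b (-0.31) and Efna5 and Epha3 (0.14), over 4 group means. Within E9.5 it was the other way for Slit2 and Robo1 (0.61), over 6 group means. These are descriptions over groups whose libraries share a baseline and a spread of values, with no test. The other pairs lay between -0.41 and 0.40, including Sema3a and Nrp1 at 0.40 and Slit2 and Robo2 at -0.09.

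Genes that work with these families were followed in 3 further lists. Of 24 other guidance cues and receptors measured, 4 passed higher in E8.5 mesenchyme (2.4% of all genes passed in either direction), including Bmp7, a repellent of commissural axons (2.25 ± 0.50, limma adjusted p = 0.0018), and Cxcl12, the chemokine that draws Cxcr4-bearing cells (1.04 ± 0.30, 0.040). In the caudal epithelium 2 were higher and 1 lower (1.41% of all genes in either direction), with Boc, a Shh co-receptor, higher by 2.23 ± 0.22 (1.1e-12) and Bmp7 lower by -2.27 ± 0.63 (0.042). At E9.5 the neuroepithelium, where 1.15% of all genes passed, had Cxcl12 lower (-1.77 ± 0.35, 0.00064) and Cxcr4 higher (1.17 ± 0.32, 0.036). The ligand and its receptor differed in opposite directions between mesenchyme and neural tissue. In the ectoderm 5 were higher (13.6% of all genes were), Cxcr4 by 1.39 ± 0.26 (5.7e-05), and 2 lower (23.3%), among them the Wnt receptor Ryk (-0.95 ± 0.38, 0.044). Beneath the nasal prominences 3 were higher (14.9% of all genes) and 6 lower (5.98%), led by Slitrk6 (-3.11 ± 0.69, 0.00082) and the Shh co-receptor Cdon (-2.65 ± 0.65, 0.0024). Boc rose in the E9.5 neuroepithelium (0.75 ± 0.21, 0.049), and in the libraries labelled maxillary arch, from E9.5 to E10.5, Cxcl12 fell (-1.46 ± 0.36, 0.0079) and Celsr3 rose (0.45 ± 0.13, 0.023).

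Of 11 adhesion molecules of growing axons, Nfasc was lower in E8.5 mesenchyme (-0.50 ± 0.12, limma adjusted p = 0.0058) and higher in the caudal epithelium (0.56 ± 0.15, 0.035). Nrcam was higher in the E10.5 midline (0.99 ± 0.18, 0.00028), the only 1 of the list there (0.471% of all genes passed). Beneath the nasal prominences, where 14.9% of all genes were higher, so were Nrcam (0.46 ± 0.13, 0.0067) and N-cadherin, Cdh2 (1.34 ± 0.28, 4e-04). In the E9.5 ectoderm 2 were higher (13.6% of all genes were), Alcam (0.27 ± 0.08, 0.010) and Cntn2 (0.25 ± 0.10, 0.037). Of 31 intracellular mediators, 9 were higher (14.9% of all genes) and 2 lower (5.98%) beneath the nasal prominences, with Pak3, a kinase downstream of Rac, at 2.97 ± 0.35 (7.5e-10) and Crmp1, a collapsin response mediator, at 2.39 ± 0.40 (1.1e-05). In the E9.5 ectoderm 3 were higher (13.6% of all genes), among them the exchange factor Trio (1.62 ± 0.36, 0.00065), and 10 lower (23.3%), among them the growth cone protein Gap43 (-3.39 ± 0.64, 7.9e-05).

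The Slit-Robo GTPase-activating protein Srgap1 rose in the neuroepithelium from E8.5 to E9.5 (0.56 ± 0.12, limma adjusted p = 0.0021) and fell from E9.5 to the E10.5 control (-0.55 ± 0.12, 0.013). Its relative Srgap3 was higher in E9.5 neuroepithelium than in cranial mesenchyme (0.58 ± 0.16, 0.042), as was Dpysl4 (1.75 ± 0.49, 0.047). Dpysl5 was lower in E8.5 mesenchyme (-1.04 ± 0.27, 0.013) and Dock1 higher in the caudal epithelium (0.97 ± 0.25, 0.019). In the libraries labelled maxillary arch, from E9.5 to E10.5, Gipc1 (-1.83 ± 0.59, 0.041) and Farp1 (-1.48 ± 0.36, 0.0065) fell, and in the nasal prominences the adaptor Nck1 was lower than in the libraries labelled maxillary arch (-1.94 ± 0.52, 0.049).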

How the data were processed

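Regions were captured by laser from cryosections, and a NuGEN Ovation Pico kit amplified the RNA before it was labelled and hybridised to Affymetrix arrays, per the labels' protocols. RMA, with no version, and mm9 are named in the submitters' processing notes. The deposited table gives a linear ratio per probe set. Its median over 21 libraries was within 6e-08 of 1 for each probe set, a baseline that no label describes. The floor of the table, 0.01, was shared by 62 values, none of a member. Since ratios are not levels, the planned filter on dim genes was replaced by raising ratios to 0.1.

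Of 35557 probe sets 28856 had values, 21789 of these with 1 symbol in the platform annotation, 1621 with several and 5446 with none. Of 999 genes with several probe sets the 1 whose log2 ratios averaged highest was kept (5 members). Of the symbols, 21698 were found by Entrez identifier in RefSeq. The log2 ratios of 102 libraries were fitted as 22 group means with limma 3.58.1 in R 4.3.3 (80 residual degrees of freedom, eBayes, Benjamini-Hochberg within each comparison, threshold 0.05). Data were simulated for the floor plate comparison, with 200 of 19938 genes changed. There 62% of 2-fold and 87% of 4-fold changes were called, and 5.7% of calls were of unchanged genes. Values were drawn independently, with the same spread of a gene in every group, whereas the spread of Robo3 and Epha3 differed between groups. These rates therefore need not hold for the calls of members. The number of libraries limits the precision.

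An E9.5 library labelled both mandibular arch and epidermal ectoderm was left out, and 4 E10.5 neuroepithelium libraries were grouped as medial although their titles say lateral. The members, gene lists and comparisons were chosen with earlier results of these data known. Genes were named by rule: up to 6 called members per direction with the largest difference in each comparison, the 5 with the largest F in each stage, the 2 with the widest range in each family, and up to 2 called genes per pathway list and comparison. The remaining members named beside them were chosen after their values were seen. Alternatives were quantile normalization, array weights, a trended robust prior, the mean of probe sets, the compared groups alone, with and without a replicate block, leaving out widely spread arrays (SD over 0.85), and leaving out each library in turn.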

Additional observations from a re-analysis of the deposited data

Results flagged for a closer look

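In 10 of 130 pairs of member and group checked by Dixon's test, 1 library stood apart from the others of its group. The test flags about 1 in 20 by chance. Robo3 in floor plate library 1 was 0.37, with the next library at 0.07. Ephb1 in the same library was -0.15, with the next at 0.26. Efna1 in E9.5 neuroepithelium library 2 was 0.59, with the others at -1.29 to -1.11, and in E9.5 ectoderm library 5 it was 2.06, with the next at -0.39. Sema3a in cranial mesenchyme library 2 was 0.35, with the next at 0.01. Ntn5 in cranial mesenchyme library 1 was 1.81, with the next at 0.37. In E9.5 ectoderm library 7, Sema4b was 1.31, with the next at 0.26, and Sema3b was 0.76, with the next at 0.16. Epha10 in mandibular arch library 2 was -0.49, with the next at -0.23. Slit1 in library 2 beneath the lateral prominence was 0.18, with the next at -0.09.

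The ectoderm minus arch difference of Plxnd1 was higher at E10.5 than at E9.5 by 0.88 on the log2 scale (limma adjusted p = 0.023). It is given with the libraries that end the call in the account of the maxillary arch. Most E10.5 libraries labelled maxillary arch had high surface ectoderm markers, so a change with stage cannot be told apart from a change in tissue.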

How the results depend on the processing

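Counts of members passing are for the comparisons in the report. The share of all genes in each refit is not given, so they show how stable the calls are and nothing particular to the members. With the compared groups alone they became 0 (floor plate, caudal, arches against cranial mesenchyme, nasal prominences, olfactory pit, midline, prominence neuroepithelium against control, E10.5 against E9.5 neuroepithelium, ectoderm minus arch between stages), 1 (neuroepithelium against cranial mesenchyme, E9.5 against E8.5 neuroepithelium, maxillary arch between stages), 4 (prominence neuroepithelium against nasal prominences) and 13 (ectoderm against arches). With a replicate block added they were 3 for E8.5 mesenchyme, 5 for ectoderm against arches and 0 for floor plate, caudal, cranial mesenchyme, arches, nasal prominences, olfactory pit, midline, both neuroepithelium stage comparisons, maxillary arch stages and the ectoderm difference. In 15 comparisons same-numbered libraries correlated at -0.39 to 0.69, never over 0.1 in every pair. Their median r per comparison ran from -0.08 to 0.22. The highest was in the maxillary arch stages, where other pairs had a median of -0.10, but libraries of different stages cannot share an embryo. In E9.5 arches against cranial mesenchyme the median was 0.19, against -0.04 for other pairs. There 7 of 16 libraries correlated best with a library of their own number. This check cannot exclude that some same-numbered libraries share an embryo, and the main fits used no pairing. Quantile normalization gave 2 (caudal), 4 (cranial mesenchyme), 1 (arches), 5 (E9.5 against E8.5) and 2 (E10.5 against E9.5). Array weights gave 5 (cranial mesenchyme), 13 (arches), 1 (maxillary ectoderm against arch), 7 and 2 (neuroepithelium stages), 16 (maxillary arch stages), 3 (neural minus mesenchyme difference), 27 (E9.5 F test) and 35 (E10.5 F test). Without widely spread arrays, 16 passed in ectoderm against arches. Without otic libraries 3 and 5, 1 passed there, and with the unplaced library as mandibular arch, 1 (arches) and 0 (ectoderm difference). The cause was not tested, beyond the fewer libraries.

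Leaving out 1 library gave these ranges, again of members only. Floor plate stayed at 1 to 1, E8.5 mesenchyme at 5 to 8, caudal at 3 to 4, cranial mesenchyme at 2 to 3, arches at 0 to 5, ectoderm against arches at 14 to 32, otic vesicle at 0 to 0 and maxillary ectoderm at 0 to 1. Nasal prominences gave 0 to 1, olfactory pit 1 to 1, Rathke's pouch 0 to 3, midline 2 to 4, prominence neuroepithelium 1 to 2 against control and 5 to 9 against nasal prominences. Neuroepithelium stages gave 1 to 4 and 1 to 2, maxillary arch stages 2 to 14, the neural difference 0 to 1, the ectoderm difference 0 to 2, and the F tests 7 to 11, 12 to 22 and 19 to 26. The libraries that moved a count over 1.5 times, beside those named with single genes, were Rathke's pouch 3 (3) and 5 (1), cranial mesenchyme 1 (0), E9.5 maxillary 4 (11) and 5 (14) and E10.5 maxillary 1 and 3 (8 each) between arch stages, E10.5 maxillary 5 (1) against its ectoderm, midline 1 and 2 and control 2 (2 each), and lateral nasal 4 (5). No value changed direction. Of 1163 alternative values of single members, 997 kept their call. Efna1 and Epha7 in E8.5 mesenchyme, Efna2, Nrp1, Ntn1 and Plxnd1 in ectoderm against arches and Ephb1 and Ntn5 beneath the nasal prominences kept it under every alternative run. No block could be fitted for the 2 comparisons with the medial group.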
